A study of Mus musculus with 8 samples.

Results

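The lysosomal hydrolases and autophagy genes described here are 39 mouse genes: the transcription factors Tfeb and Tfe3, lysosomal membrane proteins, acid hydrolases with their cofactors, and the core of macroautophagy. The rule names them by symbol and uses no measured value, and all 39 were found by Entrez identifier among the 27179 genes of the deposited count table. All 39 also passed the filter on low counts that left 13364 genes for testing.

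The cells were MLL-AF9 acute myeloid leukaemia cells of wild-type genotype, a mouse leukaemia driven by a fusion oncogene. They expressed GFP under ubiquitin control and luciferase from a beta-actin promoter, had been expanded in culture from a terminally ill mouse, and were injected into a vein of male recipients 8 to 10 weeks old, without conditioning. GFP-positive living cells were sorted from the bone marrow at the point of maximum response to chemotherapy. In 3 libraries the recipient ate a diet free of the branched-chain amino acids leucine, isoleucine and valine (labelled "BCAA 5+3"; the series' design text gives the meaning), and in 5 it ate a standard amino acid diet (labelled "AA 5+3"). Every mouse in both groups had also been treated with 5+3 chemotherapy (5 daily doses of cytarabine, 100 mg/kg each, the first 3 together with doxorubicin, 3 mg/kg), so the effect of chemotherapy itself cannot be read from these libraries. All libraries come from a single engineered leukaemia, and the labels call them biological replicates.

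Lysosomes are acidic organelles in which cathepsins, glycosidases and lipid hydrolases degrade what endocytosis and autophagy deliver. Autophagy wraps cytoplasm in a membrane that ULK1 and the Beclin 1 lipid kinase complex start, that the ATG5 and ATG7 conjugation system decorates with LC3 and GABARAP proteins, and that then fuses with the lysosome. When amino acids are plentiful, mTORC1 on the lysosomal surface holds TFEB and TFE3 in the cytoplasm. When they are scarce, these factors enter the nucleus and activate many genes of both systems through an E-box element called CLEAR. The comparison of the diets asked whether these transcripts differ in leukaemia cells recovered from mice that ate no branched-chain amino acids.

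The log2 fold changes of these transcripts had both signs, in shares near those of all genes tested. Of the 39 genes, 1 rose (Ctss) and 1 fell (Smpdl3a) on the BCAA-free diet at an adjusted p under 0.05 in edgeR's quasi-likelihood test. Over all genes tested, 0.756% were called, with 0.217% higher and 0.539% lower. A positive log2 fold change, BCAA-free over standard, was found for 20 members and a negative one for 19, where 52.6% of all genes tested were positive. Their median was 0.04, beside 0.02 for all genes tested, and their median absolute log2 fold change was 0.20, beside 0.18. The sum of the 39 genes, in CPM (counts scaled to a common library size with TMM factors), was 5702, 5903 and 6169.8 in the BCAA-free libraries, against 6273, 5957, 5802, 6162 and 5740.2 in the standard-diet libraries. The ranges of these sums overlapped. Since the RNA is from bulk sorted cells, fewer cells of a type and less RNA per cell cannot be told apart in any of these values.

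The remaining 37 genes did not pass, which does not show that they were equal. The standard error of a log2 fold change was 0.12 in the median member and between 0.09 (Lamp1) and 0.29 (Tfeb). The 95% interval of the log2 fold change lay within -0.5 to 0.5 for 19 members and within -1 to 1 for 37. At an unadjusted p under 0.05 there were 11 members (28.2%), 7 higher and 4 lower, where 13.5% of all genes tested reached that level. In 8 members (20.5%) the 3 BCAA-free libraries did not overlap the 5 standard-diet libraries, 4 above and 4 below, beside 8.84% of all genes tested (4.17% above and 4.68% below). The members are well expressed genes with small errors (median standard error 0.12, beside 0.17 for all genes tested), and their part in these shares was not tested.

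**Figure D1:**
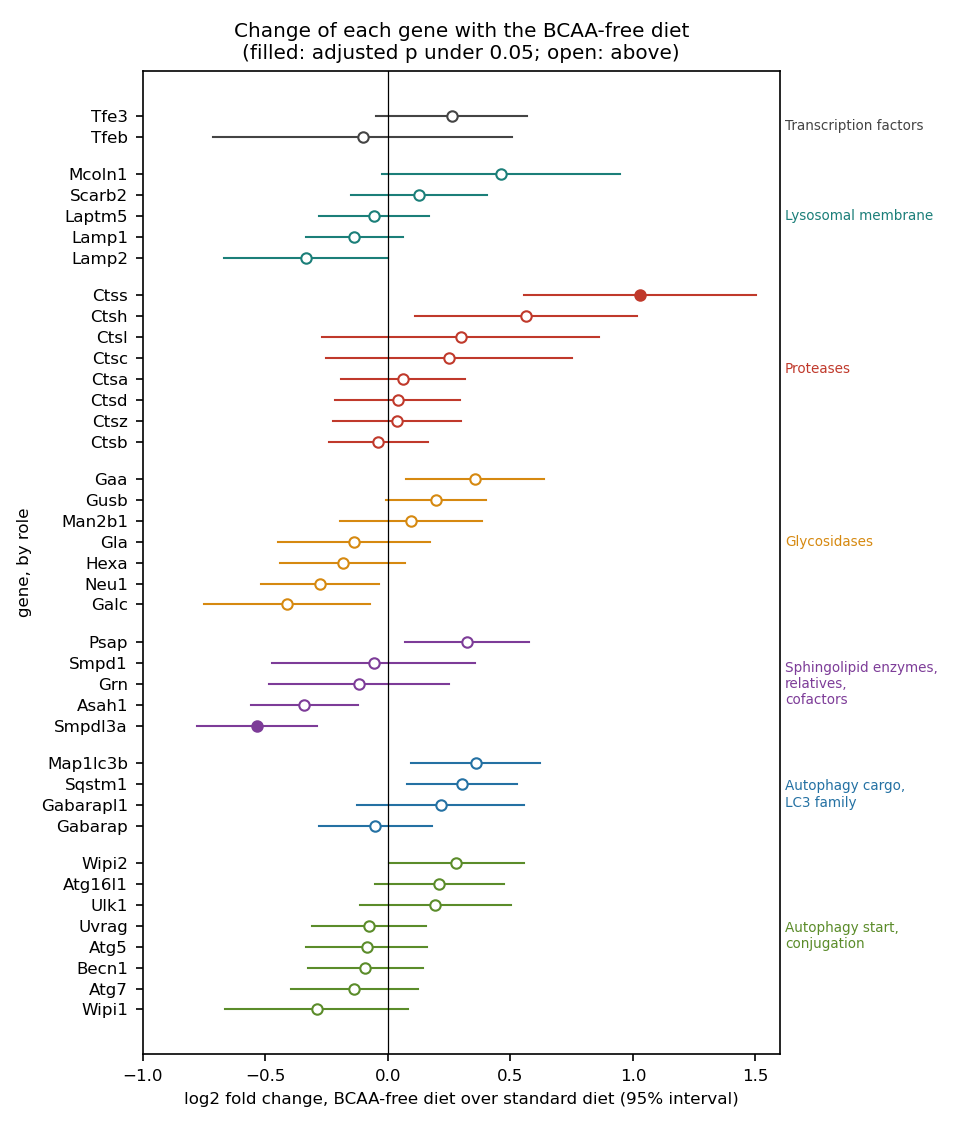
Log2 fold change of each of the 39 genes, BCAA-free diet over standard diet (x axis), grouped by role, with 95% intervals from edgeR's quasi-likelihood fit. Filled points are Ctss (1.03) and Smpdl3a (-0.53), the 2 genes with an adjusted p under 0.05. The other points lie on both sides of 0 within every role.

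The cells transcribed the degradative machinery at high levels. By CPM, 30 of the 39 genes lay above the median tested gene and 11 above the 90th percentile. Compared per kilobase of merged exons over all 8 libraries, the highest was Lamp1, a glycoprotein that lines the lysosomal membrane, at 277 CPM per kilobase. Laptm5, a lysosomal membrane protein of blood cells, followed at 204. Next came the carboxypeptidase Ctsz (165), the beta-hexosaminidase subunit Hexa (134), the aspartic protease Ctsd (124), the saposin precursor Psap (120.2) and the beta-glucuronidase Gusb (104). The lowest were Tfeb at 1.03 and the cysteine protease Ctsl at 1.49 CPM per kilobase. The genes that start and build the autophagosome stood in the middle and lower part of this order, between ranks 18 (Atg5) and 31 (Wipi2) of 39. They had between 4.10 (Wipi2) and 23.8 (Atg5) CPM per kilobase, while Gabarap reached 42.6. Merged exons join all annotated exons of a gene, from 2352 bases in Atg5 to 10543 in Wipi2 among these genes. The order depends on these annotated lengths. Within a diet the median coefficient of variation of a member's CPM was 12.3% on the BCAA-free diet and 10.3% on the standard diet. Differences between genes that stand close together in this order were not tested.

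**Figure D2:**
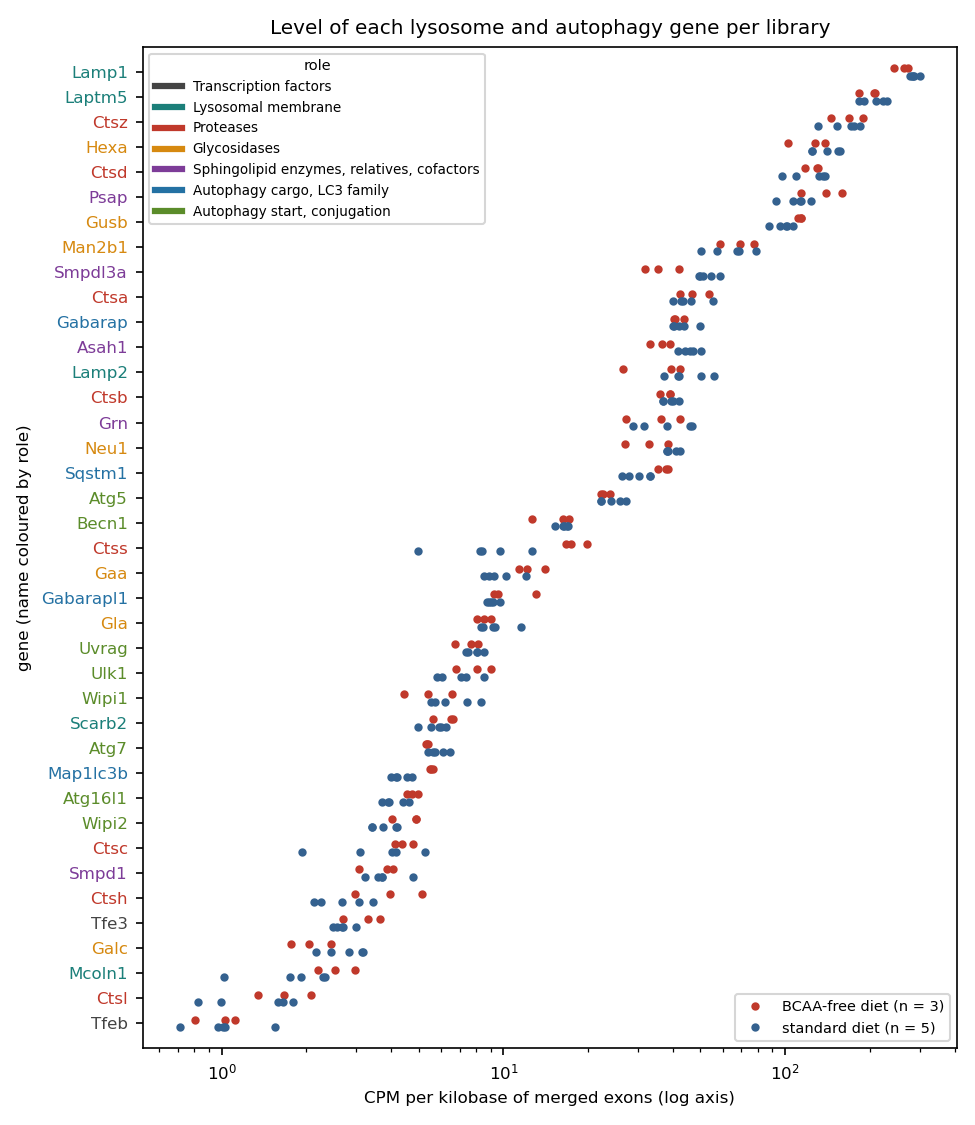
Level of each gene in every library as CPM per kilobase of merged exons (log axis), BCAA-free libraries in red above standard-diet libraries in blue, genes ordered by their mean and coloured by role. The genes run from Tfeb at 1.03 to Lamp1 at 277, and the diets separate in few of them.

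Tfeb was among the lower transcripts tested, and Tfe3 was near the median tested gene. Tfeb had 6.30, 4.55 and 5.82 CPM in the BCAA-free libraries, against 5.50, 8.79, 5.72, 4.02 and 5.81 CPM in the standard-diet libraries. These ranges overlapped, with the highest and the lowest value both on the standard diet (log2 fold change -0.10, adjusted p = 0.919, SE 0.29). Tfe3 had 25.0, 30.6 and 33.7 CPM, against 23.9, 25.0, 27.9, 24.8 and 23.0 CPM in standard-diet cells. It was higher in 2 of the 3 BCAA-free libraries than in any standard-diet library, and did not pass (log2 fold change 0.26, adjusted p = 0.456, SE 0.15). Both factors are controlled largely by their location in the cell, which these data do not measure.

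The sequence through which they act can be looked for in the promoters of the members. RefSeq promoters (GRCm38.p6, 250 bases before to 50 after an annotated start) were at hand for 33 of the 39 genes, and not for Ctsb, Ctsh, Smpdl3a, Asah1, Becn1 and Atg16l1. They numbered 38, and a gene was counted if any of its promoters held the letters. The E-box CACGTG occurred in 9 of the 33 (27.3%) and its extended form TCACGTGA, which contains it, in 4 (12.1%). Each reads the same on both strands. Among all tested genes with a promoter, 11.9% held the E-box and 2.23% the extended form. Among 118 other lysosome and autophagy genes with a promoter, 33 held the E-box and 13 (11.0%) the extended form. Stretches upstream of an annotated start are shown for the 4 genes with the extended form, for Lamp1, which has 4 copies of the E-box within 120 bases, and for Ctss, the gene that rose, which has none. They run in the direction of transcription, with E-boxes, extended where the flanking letters allow, in capitals. The stretch of Ctsa belongs to a start inside the gene, and the Ctsa promoter at the gene's first base holds no E-box.
Ctsa, chr2:164833693-164833772 (+): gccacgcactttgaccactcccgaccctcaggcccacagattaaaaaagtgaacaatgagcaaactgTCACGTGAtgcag
Ctsd, chr7:142387873-142387952 (-): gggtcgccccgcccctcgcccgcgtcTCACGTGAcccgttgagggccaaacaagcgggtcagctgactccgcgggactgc
Mcoln1, chr8:3500439-3500518 (+): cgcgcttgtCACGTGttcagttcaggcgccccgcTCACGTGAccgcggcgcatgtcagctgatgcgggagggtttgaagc
Gla, chrX:134601176-134601255 (-): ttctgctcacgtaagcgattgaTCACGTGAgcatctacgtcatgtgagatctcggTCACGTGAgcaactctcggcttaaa
Lamp1, chr8:13159041-13159160 (+): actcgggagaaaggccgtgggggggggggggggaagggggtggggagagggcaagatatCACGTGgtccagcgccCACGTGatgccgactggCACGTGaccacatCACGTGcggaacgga
Ctss, chr3:95526666-95526785 (+): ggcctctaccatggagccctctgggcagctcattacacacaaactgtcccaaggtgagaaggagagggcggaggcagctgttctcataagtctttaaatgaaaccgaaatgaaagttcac

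The genes with these letters had log2 fold changes of both signs. The 4 with the extended form had log2 fold changes of 0.46 (Mcoln1), 0.06 (Ctsa), 0.04 (Ctsd) and -0.14 (Gla), none with an adjusted p under 0.05. The 9 members with an E-box had a median of 0.04, with 5 positive and 4 negative, and the 24 without it a median of 0.07, with 13 positive and 11 negative. Lamp1 was below 0, at -0.14. A match of letters is a description and shows no binding.

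**Figure D3:**
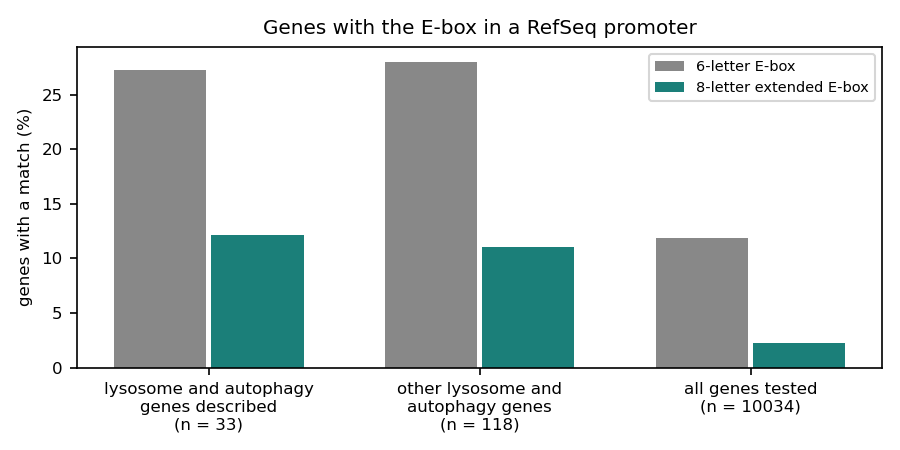
Percent of genes with the E-box (grey) or its extended form (green) in a RefSeq promoter, for the 33 genes described here that have a promoter entry, for 118 other lysosome and autophagy genes, and for 10034 tested genes. The bars of both lysosome and autophagy sets for the E-box (9 of 33 and 33 of 118 genes) stand above that of all tested genes (11.9%).

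Among the membrane proteins no gene passed. Lamp1 had 731, 651 and 709 CPM on the BCAA-free diet, against 754, 743, 765, 805 and 761 CPM on the standard diet, so that all 3 BCAA-free libraries lay below the other diet by a small margin (log2 fold change -0.14, adjusted p = 0.557, SE 0.09). Lamp2, its partner and a receptor of chaperone-mediated autophagy, averaged 345 ± 80.6 CPM (SD, n = 3), against 434 ± 72.4 CPM (SD, n = 5), with BCAA-free replicate 3 lowest at 253 CPM (adjusted p = 0.373). Laptm5 (adjusted p = 0.861) and Scarb2, the receptor that carries glucocerebrosidase to lysosomes (0.726), differed by less than 0.2 on the log2 scale. Mcoln1, the lysosomal calcium channel whose current activates TFEB, was at 19.4 ± 2.92 CPM, against 14.1 ± 4.04 CPM on the standard diet, where replicate 5 was lowest at 7.68 CPM (log2 fold change 0.46, adjusted p = 0.398). The 5 genes together summed to 1891, 1869 and 1806 CPM in the BCAA-free libraries and to between 1960.2 and 2103 CPM in the standard-diet libraries, without overlap. Most of this sum is Lamp1, Laptm5 and Lamp2, whose log2 fold changes were negative, while those of Mcoln1 and Scarb2 were positive.

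Cathepsin S was the single gene that rose. Ctss encodes a cysteine protease of antigen-presenting cells that trims the invariant chain from MHC class II. It had 26.8, 23.6 and 22.6 CPM in the BCAA-free libraries, against 11.2, 11.4, 13.2, 6.78 and 17.1 CPM in the standard-diet libraries. All 3 BCAA-free values were above all 5 standard-diet values, and standard-diet replicate 4 was lowest. The rise was 2.04-fold (log2 fold change 1.03, SE 0.22, 95% interval 0.554 to 1.501, adjusted p = 0.045 in edgeR's quasi-likelihood test). Ctss (gene 13040) spans chromosome 3 from 95526786 to 95556405 in GRCm38. DESeq2 (adjusted p = 0.00228) and limma-voom (0.0230) called it too. The call sits at the threshold: of the fits that leave out 1 library it held only without standard-diet replicate 5 (0.0244), and it reached 0.130 without BCAA-free replicate 2, while the log2 fold change stayed between 0.88 and 1.19. Using DESeq2 size factors in edgeR gave an adjusted p of 0.0508, and the non-robust fit 0.0571.

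Some markers of antigen-presenting cells were also higher on the BCAA-free diet, in cells sorted as GFP-positive and 7AAD-negative. The clearest were B cell markers, of which 2 of 4 tested rose: Cd79a (log2 fold change 3.12, adjusted p = 0.0305) and Cd79b (1.34, adjusted p = 0.00852), the signalling chains of the B cell receptor. All 4 had an unadjusted p under 0.05. The 6 B cell genes given here summed to 32.1, 84.0 and 23.0 CPM in the BCAA-free libraries, against 7.66 to 14.4 CPM in the standard-diet libraries, without overlap, while Vpreb1 was at 0 in 2 libraries. Of 14 tested macrophage markers 1 rose, the scavenger receptor Cd163 (log2 fold change 1.67, adjusted p = 0.045), and 11 reached an unadjusted p under 0.05. By sign, 11 of the 14 were positive and 3 negative. The summed level of all 15 leaned the other way, at 255 to 374 CPM in BCAA-free libraries, against 357 to 436 CPM in standard-diet libraries. These ranges overlapped, and most of the sum was Vcam1 and Adgre1. The log2 fold changes of the 14 tested ran from -0.63 to 1.95. C1qa, 1 of the 15 listed, was at 5.23 ± 1.22 CPM (SD, n = 3), against 2.79 ± 0.687 CPM (SD, n = 5), and Timd4 was at 0 in 3 libraries. The 6 dendritic cell markers summed to 35.7 to 223 CPM in BCAA-free libraries and to 20.7 to 44.3 CPM in standard-diet libraries, with none called among 5 tested in edgeR and 3 at an unadjusted p under 0.05. BCAA-free replicate 2 had the highest sums of dendritic and B cell markers. Without it the log2 fold change of Ctss was 1.04, with an adjusted p of 0.130 in edgeR. The B cell sums of the BCAA-free libraries that remain, 32.1 and 23.0 CPM, were still above those of all standard-diet libraries. The 8 monocyte markers summed to 545 to 909 CPM in BCAA-free libraries and to 546 to 729 CPM in standard-diet libraries and none of the 8 was called in edgeR, with 4 at an unadjusted p under 0.05. Neutrophil markers (1590.0 to 6369 CPM, against 789 to 6485 CPM), T and NK cell markers (10.8 to 32.0 CPM, against 8.06 to 18.1 CPM) and erythroid markers (3.79 to 34.1 CPM, against 3.61 to 10.4 CPM) overlapped between the diets. None of these lists held a called gene in edgeR, and 2, 1 and 1 of their genes had an unadjusted p under 0.05. The part of other cells in the rise of Ctss was not tested. The 9 leukaemia markers (Hoxa9, Hoxa10, Meis1, Mpo and others) summed to 7640.1 to 9475 CPM in BCAA-free cells, against 9977 to 12848 CPM in standard-diet cells, without overlap. Most of this sum was Mpo, and 7 of the 9 genes had a negative log2 fold change and 2 a positive one. None of the 9 was called in edgeR and 3 had an unadjusted p under 0.05.

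**Figure D4:**
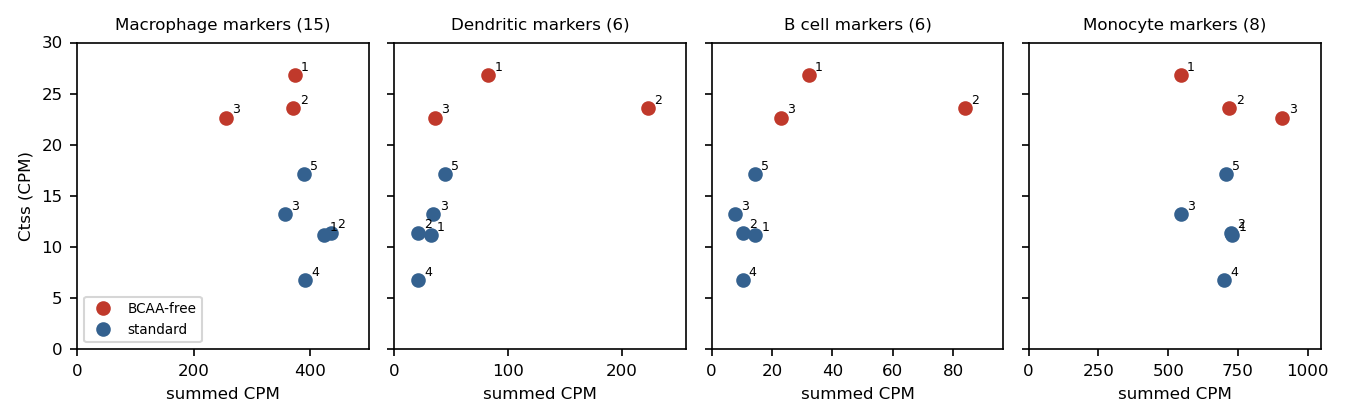
Ctss (y axis, CPM) against the summed CPM of macrophage, dendritic cell, B cell and monocyte marker lists (x axes), 1 point per library with its replicate number, BCAA-free diet in red and standard diet in blue. The 3 BCAA-free libraries are highest in Ctss, at 22.6 to 26.8 CPM, and in the B cell sum, at 23.0 to 84.0 CPM, while the macrophage and monocyte sums overlap between the diets.

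The other 7 proteases were not called. Ctsh, an aminopeptidase of the cathepsin family, had 13.4, 23.1 and 17.8 CPM on the BCAA-free diet, against 15.6, 10.2, 12.1, 9.54 and 13.8 CPM on the standard diet. BCAA-free replicate 1 lay inside the standard-diet range (log2 fold change 0.56, adjusted p = 0.267, SE 0.21). Ctsc, the dipeptidyl peptidase that activates granule serine proteases of myeloid cells, was at 25.6 ± 1.96 CPM, against 21.5 ± 7.28 CPM (adjusted p = 0.691). The abundant proteases differed by small amounts. Ctsd averaged 297 ± 17.6 CPM, against 288 ± 42.8 CPM (log2 fold change 0.04, 95% interval -0.21 to 0.30). Ctsz averaged 241 ± 30.9 CPM, against 235 ± 30.6 CPM (0.04, -0.22 to 0.30). Ctsb, which can act inside and at the end of a peptide chain, averaged 229.9 ± 10.6 CPM, against 236 ± 13.8 CPM (-0.04, -0.24 to 0.16). Ctsa, which also shields neuraminidase and beta-galactosidase in a complex, and Ctsl had adjusted p of 0.864 and 0.670. In GENCODE M21, 12.8% of the exon bases of Ctsb lie opposite Fdft1, a cholesterol synthesis gene, and 26.8% of those of Ctsl opposite Gm47123. For Ctsa 10.5% lie opposite Pltp, and 34.4% of the exon bases of Ctsd lie in Gm49369 on the same strand. Reads there cannot be assigned with certainty, since the strand setting of the counting is not given in the sources used here.

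None of the 7 glycosidases passed, and their log2 fold changes had both signs. Gaa, the acid glucosidase that degrades glycogen, had 58.1, 54.6 and 67.0 CPM in BCAA-free libraries, against 57.4, 42.6, 44.2, 48.8 and 40.9 CPM in standard-diet libraries (log2 fold change 0.36, adjusted p = 0.264, SE 0.13). Only standard-diet replicate 1 reached into the BCAA-free range. Gusb had 517, 505 and 519 CPM, against 485, 399.9, 436, 463 and 458 CPM, a full separation by a small margin (log2 fold change 0.20, adjusted p = 0.393, SE 0.10). Galc, which removes galactose from galactosylceramide, had the opposite sign, with 36.3, 26.2 and 30.3 CPM on the BCAA-free diet, against 42.1, 47.0, 47.3, 36.4 and 32.3 CPM on the standard diet. Its ranges overlapped through standard-diet replicate 5 (log2 fold change -0.41, adjusted p = 0.283, SE 0.16). Neu1, the lysosomal sialidase, had 101, 123 and 143 CPM, against 158, 142, 144, 153 and 143 CPM, with BCAA-free replicate 3 inside the standard-diet range (log2 fold change -0.27, adjusted p = 0.309, SE 0.11). Hexa (adjusted p = 0.531), the alpha-galactosidase Gla (0.730) and the alpha-mannosidase Man2b1 (0.811) had unadjusted p above 0.05. In the annotation 12.8% of the exon bases of Hexa lie opposite Tmem202.

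Among the sphingolipid enzymes, their relatives and cofactors was the gene that fell. Smpdl3a is related in sequence to acid sphingomyelinase but is known as a phosphodiesterase of nucleotides, without sphingomyelinase activity. It had 73.0, 65.5 and 87.0 CPM on the BCAA-free diet, against 121, 112, 103, 105 and 102 CPM on the standard diet. Every BCAA-free library was below every standard-diet library. The fall was 1.45-fold (log2 fold change -0.53, SE 0.12, 95% interval -0.78 to -0.29, adjusted p = 0.045 in edgeR's quasi-likelihood test). Smpdl3a (gene 57319) spans chromosome 10 from 57794544 to 57811830 in GRCm38. DESeq2 (adjusted p = 0.00175) and limma-voom (0.0496) called it as well. Of the fits that leave out 1 library it passed only without BCAA-free replicate 3 (0.0154), the library with the highest of the 3 values, and it reached 0.197 without BCAA-free replicate 2, while the log2 fold change stayed between -0.65 and -0.45. The non-robust fit gave an adjusted p of 0.0569.

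The sphingolipid enzymes and cofactors themselves were not called. Asah1, the acid ceramidase, had 123, 132 and 112 CPM on the BCAA-free diet, against 141, 159, 170.0, 149 and 156 CPM on the standard diet, again without overlap. Over the whole table it did not pass (log2 fold change -0.34, SE 0.10, unadjusted p = 0.00439, adjusted p = 0.147). Psap, the precursor of the saposins that present sphingolipids to their hydrolases, had 313, 383 and 435 CPM, against 339, 293, 254, 312 and 309 CPM, with BCAA-free replicate 1 inside the standard-diet range (log2 fold change 0.32, adjusted p = 0.257, SE 0.12). Smpd1, the acid sphingomyelinase itself, was at 12.2 ± 1.76 CPM, against 12.7 ± 1.95 CPM (log2 fold change -0.06, adjusted p = 0.933). Grn, whose product progranulin is cut into granulins in the lysosome, was at 122 ± 26.5 CPM, against 133 ± 28.1 CPM (-0.12, adjusted p = 0.817).

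**Figure D5:**
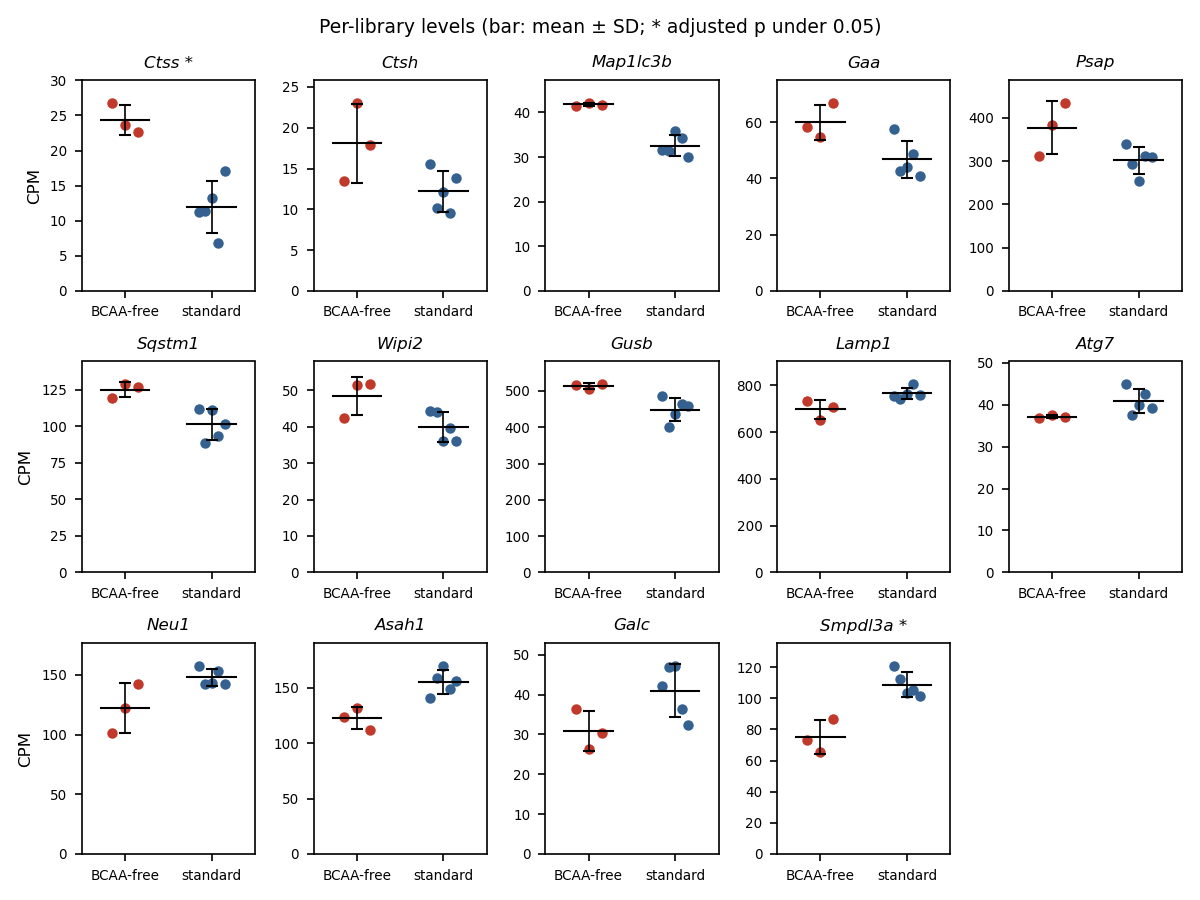
CPM in each library for the 14 genes with an unadjusted p under 0.05 or without overlap between the diets, BCAA-free diet (red, n = 3) left of standard diet (blue, n = 5), with mean ± SD, each axis starting at 0. Ctss at 22.6 to 26.8, against 6.78 to 17.1 CPM, shows the largest relative separation of these genes. Gusb, Lamp1 and Atg7 separate by margins that are small beside their level.

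The autophagy cargo receptor and an LC3 gene separated the diets without passing the test. Sqstm1 encodes p62, which links ubiquitinated cargo to LC3. It had 119, 129 and 127 CPM on the BCAA-free diet, against 112, 88.3, 111, 93.3 and 102 CPM on the standard diet (log2 fold change 0.30, SE 0.11, unadjusted p = 0.0113, adjusted p = 0.222). Map1lc3b, the LC3 protein that is lipidated onto the autophagosome, had 41.4, 42.2 and 41.8 CPM, against 31.5, 31.4, 35.8, 34.3 and 29.9 CPM (log2 fold change 0.36, SE 0.12, unadjusted p = 0.0104, adjusted p = 0.213). In both genes the 3 BCAA-free libraries lay close together and above all others. Gabarapl1 had 26.3, 19.2 and 18.6 CPM, against 19.5, 18.2, 17.9, 18.4 and 17.7 CPM, so that its log2 fold change of 0.22 came mostly from BCAA-free replicate 1 and was 0.04 without it (adjusted p = 0.594 with all libraries). Gabarap was at 76.8 ± 3.65 CPM, against 79.5 ± 7.26 CPM (log2 fold change -0.05, adjusted p = 0.884). In the annotation 17.3% of the exon bases of Sqstm1 lie opposite Mrnip and 28.3% of those of Gabarapl1 opposite 1700101I11Rik. The 4 genes together summed to 261, 271 and 262 CPM in BCAA-free libraries and to 212 to 243 CPM in standard-diet libraries.

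The genes that start and build the autophagosome showed no call. Ulk1, the kinase that mTORC1 inhibits, averaged 51.6 ± 7.43 CPM in BCAA-free cells, against 45.2 ± 7.06 CPM in standard-diet cells (log2 fold change 0.19, adjusted p = 0.595). Becn1, the scaffold of the lipid kinase complex, was at 108 ± 16.9 CPM, against 116 ± 4.66 CPM (-0.09, adjusted p = 0.768), with BCAA-free replicate 2 lowest at 89.3 CPM. Uvrag, its partner in later steps, had an adjusted p of 0.816. In the annotation 43.9% of the exon bases of Becn1 lie opposite Cntd1 and 17.6% of those of Uvrag opposite Gm45187. The lipid-binding Wipi2, which recruits the conjugation machinery, had 42.5, 51.4 and 51.7 CPM, against 44.3, 43.9, 36.1, 39.5 and 35.98 CPM (log2 fold change 0.28, adjusted p = 0.360, SE 0.13), and its relative Wipi1 had a log2 fold change of -0.29 (unadjusted p = 0.119).

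Atg7, the activating enzyme of both conjugation systems, had 36.9, 37.5 and 37.2 CPM, against 44.9, 37.6, 39.8, 42.7 and 39.2 CPM, just below all standard-diet libraries (log2 fold change -0.14, adjusted p = 0.672). Atg5 was at 53.9 ± 2.17 CPM, against 57.2 ± 5.39 CPM (-0.09, adjusted p = 0.799). Atg16l1, which with Atg5 places LC3 on the membrane, was at 45.9 ± 2.19 CPM, against 39.6 ± 3.70 CPM (0.21, adjusted p = 0.485). The 8 genes summed to 415 to 462 CPM in BCAA-free cells and 422 to 455 CPM in standard-diet cells.

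The rest of both systems was checked in 147 further genes. None was called in edgeR, beside 0.756% of all genes tested, and 18 (12.2%) had an unadjusted p under 0.05, beside 13.5%. The diets did not overlap in 9.52% of the 147 genes, beside 8.84% of all genes tested. In limma-voom none of the 147 was called, and in DESeq2 2 were. Their median log2 fold change was -0.03, with 66 positive and 81 negative. Of 31 other hydrolases, 13 were positive and 18 negative, with none called. Ifi30, the thiol reductase that opens disulphides for MHC class II presentation, had the smallest p of them, with 20.1, 17.4 and 25.5 CPM on the BCAA-free diet, against 16.6, 8.40, 12.2, 10.4 and 9.80 CPM on the standard diet. Its groups did not overlap (log2 fold change 0.86, adjusted p = 0.0798, SE 0.22), and it was called in DESeq2 (0.0129) and without standard-diet replicate 1 (0.0331). The arylsulphatase Arsb came next at 49.1 ± 3.89 CPM, against 65.5 ± 10.6 CPM (adjusted p = 0.206).

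Of 16 subunits of the proton pump that acidifies the lysosome 11 were negative, with a median of -0.10 and none called. Its catalytic subunit Atp6v1a averaged 263 ± 35.0 CPM in BCAA-free cells, against 334 ± 51.8 CPM in standard-diet cells (adjusted p = 0.255), and Atp6v1c1 averaged 119 ± 3.59 CPM, against 142 ± 11.9 CPM (0.296). Of 21 other membrane proteins and transporters 14 were negative and none called, with Cln3 (log2 fold change 0.35, adjusted p = 0.280) and the cholesterol carrier Npc2 (-0.24, 0.370) at the smallest p. The 18 genes that deliver enzymes and vesicles to lysosomes had a median of 0.02 and none called. Lyst, the gene mutated in beige mice, was at 166 ± 36.6 CPM, against 214 ± 30.7 CPM (adjusted p = 0.284), and the tethering subunit Vps18 had an adjusted p of 0.395.

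The 20 genes that govern TFEB and its relatives from the lysosomal surface had a median of 0.04, again with none called. Fnip1, the partner of folliculin, had 127, 127 and 111 CPM on the BCAA-free diet, against 132, 200.3, 161, 139 and 149 CPM on the standard diet (log2 fold change -0.36, adjusted p = 0.232, SE 0.13). Lamtor5, a subunit of the Ragulator complex that docks mTORC1, had 45.8, 43.5 and 46.6 CPM, against 36.1, 34.6, 41.7, 31.2 and 36.3 CPM (log2 fold change 0.33, adjusted p = 0.276, SE 0.13). The diets did not overlap in either gene, and both are given here because they had the smallest p of their list.

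Of 30 other autophagy genes 15 were positive and 15 negative, with none called. Tmem41b, a lipid scramblase of the endoplasmic reticulum needed for autophagosome formation, had 8.85, 4.71 and 9.61 CPM, against 11.6, 11.3, 17.5, 12.4 and 17.3 CPM (log2 fold change -0.85, adjusted p = 0.147, SE 0.26), and was called in DESeq2 (0.0426). Atg3, the conjugating enzyme for LC3, had an adjusted p of 0.392. Of 11 other cargo receptors none was called and 4 had an unadjusted p under 0.05. Tax1bp1 had 544, 510 and 368 CPM on the BCAA-free diet, against 573, 660, 573, 643 and 633 CPM on the standard diet (log2 fold change -0.38, adjusted p = 0.186, SE 0.12), and Optn was at 19.2 ± 3.00 CPM, against 25.3 ± 3.52 CPM (adjusted p = 0.311). The receptor Sqstm1 had a log2 fold change of 0.30, the opposite sign of both.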

How the data were processed

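The authors deposited raw counts per Entrez gene and library, without normalization. Per the labels' protocols, polyadenylated RNA was made into Kapa mRNA HyperPrep libraries and read as pairs of 38 bp. The submitters' processing notes name mm10, featureCounts and Cell Ranger. For the aligner, the strand setting and multi-mapped reads, the choice was not given in the sources used here. Columns were matched to samples by description label and groups taken from titles. Library totals were 14851240 to 30306697 counts on the BCAA-free diet and 16588662 to 38966911 on the standard diet, and no member had under 67 counts in a library. Within each diet no library was a repeat of another (chi-square per degree of freedom 19.5 to 61.9), and pairs across the diets were not compared in this way. Whether each library is a separate animal is not stated beyond "biological", so p-values measure the spread between these libraries.

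RefSeq GRCm38.p6 gave symbols for 25275 of 27179 identifiers, and GENCODE M21 gave exon lengths. The test was edgeR 4.0.16 (R 4.3.3), quasi-likelihood, robust, TMM factors, default filter (minimum count 10, total 15), diet as the term, with Benjamini-Hochberg adjustment over 13364 genes and a threshold of 0.05. The procedure was tested on simulated data. The standard error of a log2 fold change was computed as its absolute value over the square root of the test's F statistic. The 95% intervals were built from this standard error. Alternatives used DESeq2 1.42.0, limma 3.58.1 (voom) and other settings. Values per library were to be given for members with an unadjusted p under 0.05 or without overlap, and 2 genes of each further list by smallest p. The members, lists and the 2 libraries left out together were chosen with earlier results of these data known. A gene of the B cell marker list is not reported here, and its sums are over the remaining 6.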

Additional observations from a re-analysis of the deposited data

Results flagged for a closer look

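In 61 sets of 5 standard-diet values (the 39 genes, 14 further genes named and 8 summed marker lists), 1 held a library far from the others. The summed monocyte markers of standard-diet replicate 3 were at 546 CPM, against 701 CPM in the nearest other library. Chance flags about 1 in 20 such sets. No set of the 39 genes was flagged, and groups of 3 were not tested.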

How the results depend on the processing

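Over all genes edgeR called 101, against 384 in DESeq2, 237 with no filter on low counts and 32 to 134 when 1 library was left out (32 without BCAA-free replicate 2). The count of members called higher was 1 (Ctss), and 0 with DESeq2 size factors in edgeR, in the non-robust fit, and without BCAA-free replicate 3 and standard-diet replicate 1 together. The count of members called lower was 1 (Smpdl3a), and 0 in the non-robust fit. Leaving out 1 library gave between 0 and 1 for each. Of 147 further genes 0 were called, against 2 in DESeq2, 1 with no filter and 0 to 1 without 1 library. The members' median log2 fold change of 0.038 was between -0.035 (without BCAA-free replicate 3) and 0.086 (without standard-diet replicate 1). Same-numbered libraries of the diets did not deviate together (correlations -0.13, -0.03 and -0.34), so the numbers were not taken as pairs. With the replicate number as a block, edgeR called 0 genes and 0 members in either direction, with 899 genes and 4 members at an unadjusted p under 0.05. With 3 BCAA-free libraries, the adjusted p of both called members stands so near the threshold that most single omissions end it.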
